A study of Mus musculus with 4 samples.

Results

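The comparison described here sets RNA carried down by a nonspecific antibody against the RNA it was drawn from. It used 2 of the 4 arrays of the study, the array labelled IgG and the array labelled Input, and the value for each gene is the IgG signal minus the input signal. Both came from intestinal epithelium of adult C57BL/6 mice that was crosslinked with ultraviolet light. The input RNA had seen no antibody, and the IgG sample was precipitated with control IgG. The other 2 arrays, not part of the comparison, carried RNA precipitated with an antibody to the RNA-binding protein Msi1 or to an hnRNP, and their signals are given beside the results. Each array carried RNA combined from 2 experiments, with 100 ng labelled, so every group had 1 array and no difference could be tested. Signals are log2 values of Affymetrix Mouse Gene 1.0 ST arrays, on which 21640 of the 34760 probe sets name a single gene. These represent 19937 genes.

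Crosslinking and immunoprecipitation (CLIP) uses ultraviolet light to bind proteins to the RNA they touch and an antibody to pull the protein down with its RNA. RNA also sticks to beads, tubes and antibody without a specific protein, and a precipitation with nonspecific IgG is the usual measure of that background. Transcripts that are abundant, or structured and bound by many proteins, are known to recur in such controls. An equal mass of RNA labelled from each sample means that the arrays show the makeup of the RNA and not how much was recovered.

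Olfactory and vomeronasal receptor genes, sensory receptors that gut epithelium should not express, gave the level of background. Their 1208 probe sets set a floor on each array, the 95th percentile of their signals, at 4.09 on input and 5.26 on IgG. A gene counts as detected above this floor. The median receptor gene read 2.93 on input and 3.90 on IgG, so background itself was higher on IgG by 0.96 log2 units at the median. Of 1194 receptor genes, 47.5% were at least 2-fold higher on IgG and 0.335% were at least 2-fold lower. Each positive difference below therefore has to be read against this offset. On input the markers of the labelled tissue were present: 28 of 28 enterocyte markers and 20 of 20 enteroendocrine markers were detected, against 5 of 14 stromal and muscle markers and 2 of 12 enteric neuron and glia markers. Immune cell markers were detected on input for 15 of 21. Of all 19937 genes, 11786 were detected on input. For a marker that is low in this bulk input RNA, fewer cells of a type and less RNA per cell cannot be told apart.

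The IgG array did not follow input abundance over most of its range. With genes placed in 20 bins by input signal, the median IgG signal was 5.14 in the bin centred on 4.42 on input and 5.08 in the bin centred on 7.94. Across those 10 bins it stayed between 4.99 and 5.14, below the IgG floor. It reached 5.33 only in the bin with the highest input, centred on 9.04. In the bins with the lowest input, among genes like the receptors, the IgG median increased with input from 3.65 to 5.01. The hnRNP array followed the same course, with a median of 5.15 in the bin at 4.42 and 5.25 in the highest. The Msi1 array did not flatten and went from 4.85 to 6.47 between those bins.

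**Figure D1:**
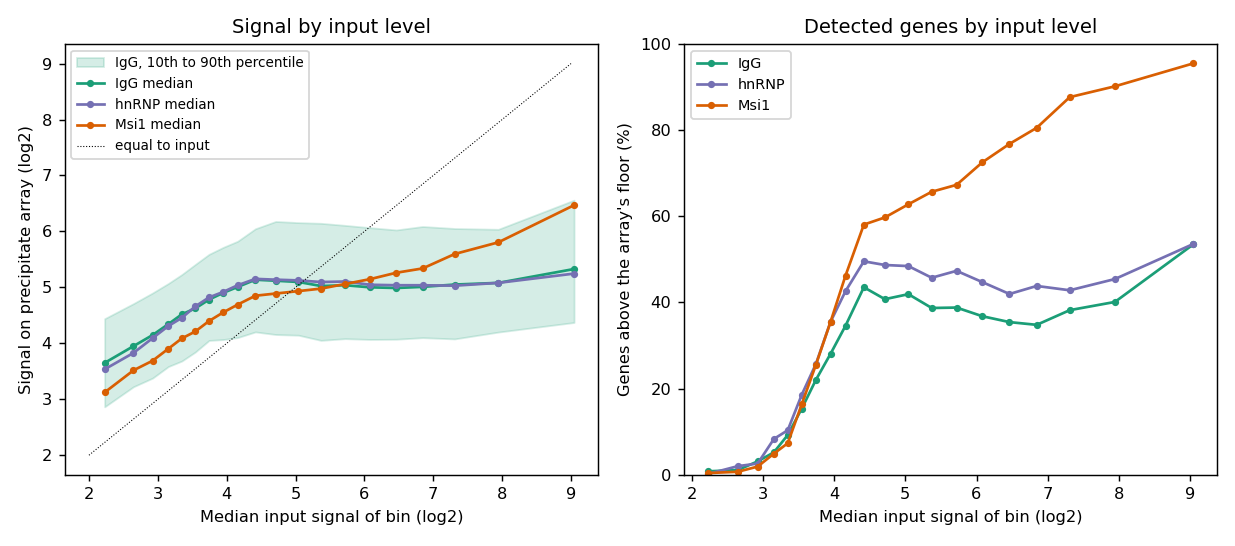
Median signal of the IgG, hnRNP and Msi1 arrays (left, log2) and the percentage of genes above each array's floor (right) in 20 equal bins of genes by input signal (horizontal axis, log2). The IgG and hnRNP medians are flat near 5 above an input of 4.4, while the Msi1 median rises to 6.47, and the shaded band holds the middle 80% of genes on IgG.

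Detection on IgG changed little with input level between an input of 4.42 and 7.94, and was less frequent below that range and more frequent above it. Of 11786 genes above the input floor, 4697 (39.9%) were also above the IgG floor and 7089 were not. A further 907 of the 8151 genes not above the input floor (11.1%) exceeded the IgG floor, and 7244 genes were above neither. Of 61 receptor genes above the input floor, 25 (41.0%) were also above the IgG floor, a share like that of all genes. The share above the IgG floor was 43.5% in the bin at an input of 4.42, 34.8% in the bin at 6.85 and 53.5% in the highest bin. In that highest bin the share was 53.6% on the hnRNP array and 95.5% on the Msi1 array.

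At the top of the input range the IgG signal was higher. Of 180 genes with an input signal above 10, 128 (71.1%) were above the IgG floor, with a median of 5.76. Of the 15 genes above 12 on input, 14 were above the IgG floor, with a median of 7.63. Even so, 12 of the 180 genes reached 8 on IgG. Of 3160 genes above 7 on input, 91 (2.88%) were above 7 on IgG. The IgG array as a whole had 219 genes above 7, of which 126 lay between the floor and 7 on input. Of these 219 genes, 160 were also above 7 on the hnRNP array and 126 on the Msi1 array.

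**Figure D2:**
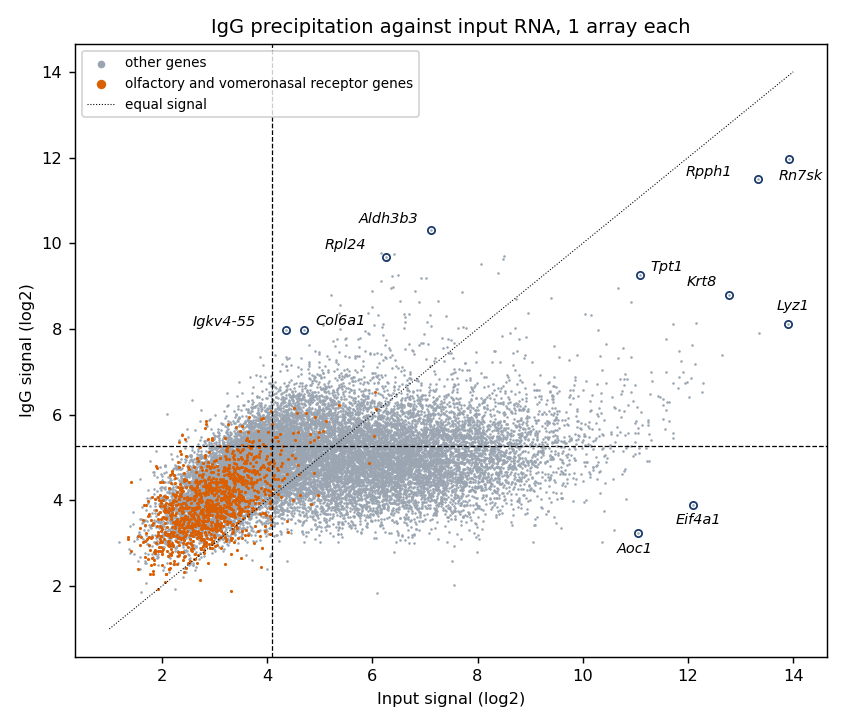
IgG signal (vertical, log2) against input signal (horizontal, log2) for 19937 genes, with receptor genes in orange, the floors of 4.09 and 5.26 as dashed lines and equal signal as a dotted line. Most genes form a flat band near 5 on IgG, Rn7sk and Rpph1 stand at the upper right, and Eif4a1 and Aoc1 lie far below at high input.

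Among the 12693 genes above at least 1 of the floors, 5669 (44.7%) were at least 2-fold lower on IgG than on input and 2102 (16.6%) were at least 2-fold higher, so that 27.0% of the genes called were higher. The median difference was −0.71. Relative to the receptor median, 526 genes (4.14%) were higher and 8216 (64.7%) lower, and the share higher was 6.02%. With the dimmer signal of each gene raised to its floor, 35.1% were lower and 19.9% higher. Of the 5669 lower genes, 4162 were not above the IgG floor, so their folds are lower bounds against it. Of the 2102 higher genes, 907 were not above the input floor, and 53 had an IgG signal that was not above its own floor. Quantile normalization moved the share higher to 39.4% and loess centring to 49.2%.

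Differences given in brackets below are those of the deposited signals, also where a signal was not above its floor. Among genes above both floors, the 10 furthest below input included transcripts of abundant epithelial proteins. Clca3b, of the family of goblet cell calcium-activated chloride channel regulators, read 11.72 on input and 5.45 on IgG and was 77.2-fold lower. B2m, the light chain of MHC class I, read 11.72 and 5.56, a 71.3-fold difference. The mucin gene Muc2 read 11.57 and 5.66 and the polymeric immunoglobulin receptor gene Pigr differed by −5.64. The G protein subunit gene Gnb1 (−5.88), the metallothionein gene Mt2 (−5.79), the galectin gene Lgals2 (−5.71), the chaperone gene Hspa8 (−5.74) and Cox7b of the respiratory chain (−5.64) completed this group with Lyz1. All 10 were above both floors, though Cox7b, at 5.28 on IgG, exceeded the IgG floor only just.

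Several transcripts that were as bright on input did not exceed background on IgG at all. Eif4a1, an RNA helicase of translation initiation, read 12.10 on input and 3.90 on IgG and was at least 114-fold lower, and its other 2 probe sets were also lower. The brush border enzyme sucrase-isomaltase, Sis, read 11.25 and 4.91 and was at least 63.4-fold lower. Aoc1, a diamine oxidase gene, read 11.06 and 3.24. The ferritin heavy chain gene Fth1 (at least 61.4-fold lower), Cox6c of the respiratory chain (at least 62.1-fold), the fatty acid-binding protein gene Fabp2 (at least 56.1-fold) and the chemokine gene Ccl25 (at least 51.7-fold) behaved alike. The mitochondrial enzyme gene Oat, the ribosomal stalk gene Rplp0 and the membrane mucin gene Muc3 were at least 55.6-fold, 53.0-fold and 47.4-fold lower. On the Msi1 array 6 of these 10 genes read above 7, led by Fabp2 (9.78) and Ccl25 (9.26), whereas on the hnRNP array the highest of the 10 was Fth1 at 5.76.

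Small structured RNAs made by RNA polymerase III were the brightest transcripts that the IgG array kept. Rn7sk, the 7SK RNA that holds back the elongation factor P-TEFb, read 13.92 on input, 11.98 on IgG, 13.42 on Msi1 and 11.31 on hnRNP. Rpph1, the RNA of ribonuclease P, read 13.34, 11.49, 12.39 and 11.69 in the same order. These 2 were the brightest named genes on IgG, 3.86-fold and 3.60-fold lower than on input. A measure called level-matched from here on takes the IgG signal minus the median IgG signal of genes of like input level. Its 20 bins were cut anew by input signal over the 11786 genes above the input floor. The level-matched value was 6.55 for Rn7sk and 6.06 for Rpph1, but their bin also held genes as dim on input as Scarna17 (8.91). The 15 genes above 12 on input had an IgG median of 7.63. Rmrp, the RNA of ribonuclease MRP, read 10.15 on input and 8.33 on IgG, and the Y RNA gene Rny3 read 10.32 and 7.38.

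The wider list of long and structural noncoding RNAs was mixed. Of 13 members above a floor, 9 were above both floors, 9 were lower by 2-fold or more and 2 higher. The median difference was −1.26, which was 0.95 with loess centring. The level-matched median was 0.56, with 5 members at least 2-fold above genes of like input, against 10.8% of all genes. Malat1, a nuclear long noncoding RNA, read 9.43 on input and 5.99 on IgG. The telomerase RNA gene Terc read 6.61 and 5.36. Gas5, host to small nucleolar RNAs, read 7.03 and 3.82, with 1 of its 4 probe sets at a positive difference of 0.71. Meg3 (1.44) and Snhg11 (1.19) were the 2 higher members.

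Small nucleolar RNAs, which guide chemical modification of ribosomal RNA, gave the opposite picture. Of 40 members detected on input, 5 (12.5%) were above the IgG floor, against 39.9% of all genes. In all 33 of 40 were lower by 2-fold or more and 0 higher, and the median difference was −2.27. Their level-matched median was −0.84, and 14 of 40 were at least 2-fold below genes of like input, against 8.48% of all genes. Over the 5 above both floors alone, the level-matched median was 0.40. Snora3 read 10.37 on input and 3.03 on IgG (at least 34.3-fold lower) and Snord57 read 10.32 and 4.16 (at least 33.3-fold lower). The 5 above the IgG floor, named after their values were seen, were Snord49b (6.59), Snora52 (6.41), Snora73a (6.41), Snord53 (6.02) and Snora73b (5.74). Snora3 read 8.57 on the hnRNP array, but its second probe set read 4.09 there, below that array's floor of 5.17. Of the related Cajal body RNAs, Scarna17 and Scarna13 were 10.7-fold and 5.87-fold lower and Scarna8 differed by 0.22, with medians of 5.49 on IgG, 8.18 on Msi1 and 7.83 on hnRNP.

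**Figure D3:**
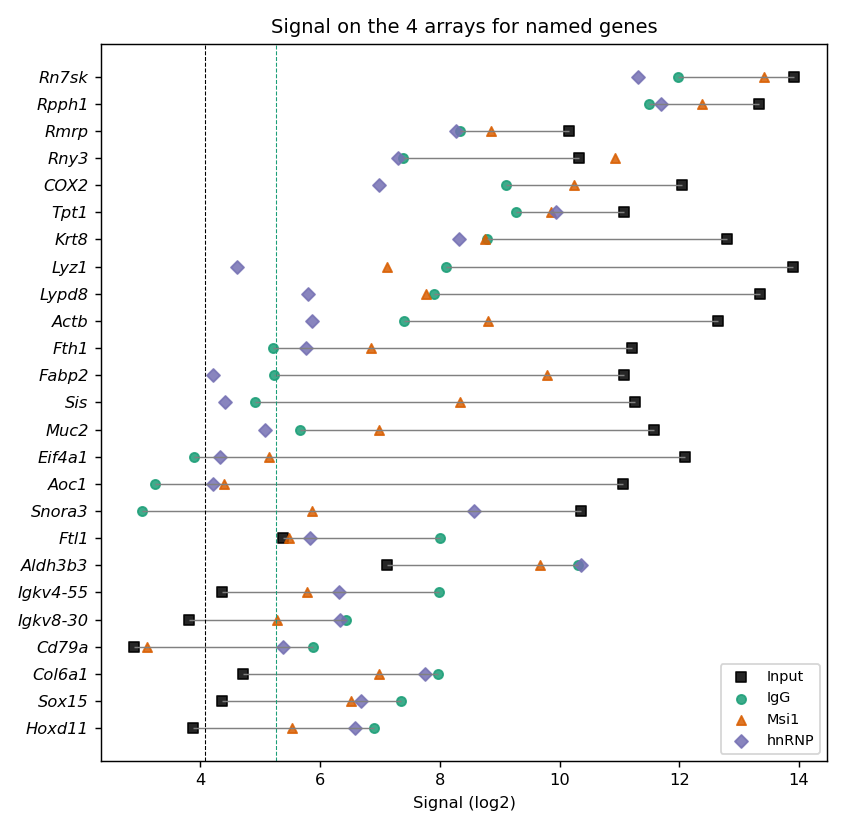
Signal (log2) of 25 named genes on the input, IgG, Msi1 and hnRNP arrays, with a grey line from input to IgG and dashed lines at the input floor (black, 4.09) and the IgG floor (green, 5.26). Rn7sk and Rpph1 are the brightest on IgG, 3.86-fold and 3.60-fold below input, Sis, Fabp2, Fth1 and Eif4a1 lie below the IgG floor, and Aldh3b3, Igkv4-55 and Col6a1 lie above input.

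Some abundant mRNAs were also kept well above the floor. Tpt1, the translationally controlled tumour protein gene, read 11.08 on input and 9.27 on IgG, but its other probe sets were lower by up to 5.34 log2 units, and its difference of −1.81 became 0.12 with quantile normalization. Krt8, a keratin of simple epithelia, read 12.79 and 8.80. Lyz1, the Paneth cell lysozyme, read 13.89 on input, 8.10 on IgG and 4.61 on hnRNP. Lypd8, an antibacterial surface protein of the gut, read 13.35, 7.90 and 5.79. Actb read 12.64 on input and 7.40 on IgG and Eef1a1 12.29 and 6.73. The mitochondrially encoded COX2 read 12.04 and 9.11 and ND3 12.13 and 7.19. Msi1 mRNA read 12.16 on input and 8.14 on IgG, 16.2-fold lower, and Msi2 read 6.17 and 5.93.

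Higher signals on IgG than on input were found mainly for genes near background on input. Igkv4-55, an immunoglobulin kappa variable gene, read 4.36 on input and 7.98 on IgG and was 12.2-fold higher. Col6a1, a collagen VI chain, read 4.71 and 7.97 (9.59-fold higher) and Fam43b 4.16 and 7.38 (9.35-fold). The transcription factor gene Sox15 (2.99), the scaffold gene Ush1g (2.92) and Rbmxl2 (2.91), a relative of an RNA-binding protein gene, were also among the 10 highest and had 1 probe set each. Aldh3b3, an aldehyde dehydrogenase gene, read 7.11 on input and 10.31 on IgG and was higher on all 3 of its probe sets, by 1.21 to 3.20.

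Others of these leading genes rested on 1 of several probe sets. Rpl24, a ribosomal protein gene, read 6.25 and 9.69 on the probe set used but was at least 2-fold lower on the other 2. Adamts9, a matrix protease gene, was at least 2-fold higher on 4 of 6 probe sets and the adhesion gene Tns1 on 5 of 6. Atp5g2 (2.79), an ATP synthase subunit gene, had another probe set at −4.91, and Rps28 (2.26) had 4 of 5 at least 2-fold lower. Hmgn2 (1.20), Myo18b (1.46), Qk (2.17) and Cox20 (0.92) were among the 10 brightest or most level-matched genes, with IgG signals of 9.71, 9.52, 9.18 and 9.30. Of 954 genes with several probe sets, 303 had differences that spanned 2 log2 units or more and 84 were called both higher and lower on different probe sets.

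Genes detected on IgG but not on input included several that gut epithelium is not known for. Nphs1, the podocyte protein nephrin, read 3.92 on input and 7.15 on IgG (at least 8.37-fold higher), though its second probe set differed by 0.94. The thrombin receptor gene F2r read 3.78 and 6.93 and the homeobox gene Hoxd11 3.87 and 6.90. Tmem200b, Trdn, Kcnj14, Tctex1d4, Palm3, Hmcn1 and Ripply3 read between 6.73 and 6.90 on IgG. On the hnRNP array these 10 genes read between 6.28 and 7.29, above that array's floor of 5.17. On the Msi1 array they read between 4.33 (Kcnj14, below that array's floor of 4.74) and 6.57 (Tmem200b). Trdn has 19 probe sets, of which 13 were at least 2-fold higher on IgG and 0 lower, and the one brightest on input differed by −0.56. Hmcn1 has 77 probe sets, of which 56 were at least 2-fold higher on IgG and 0 lower.

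**Figure D4:**
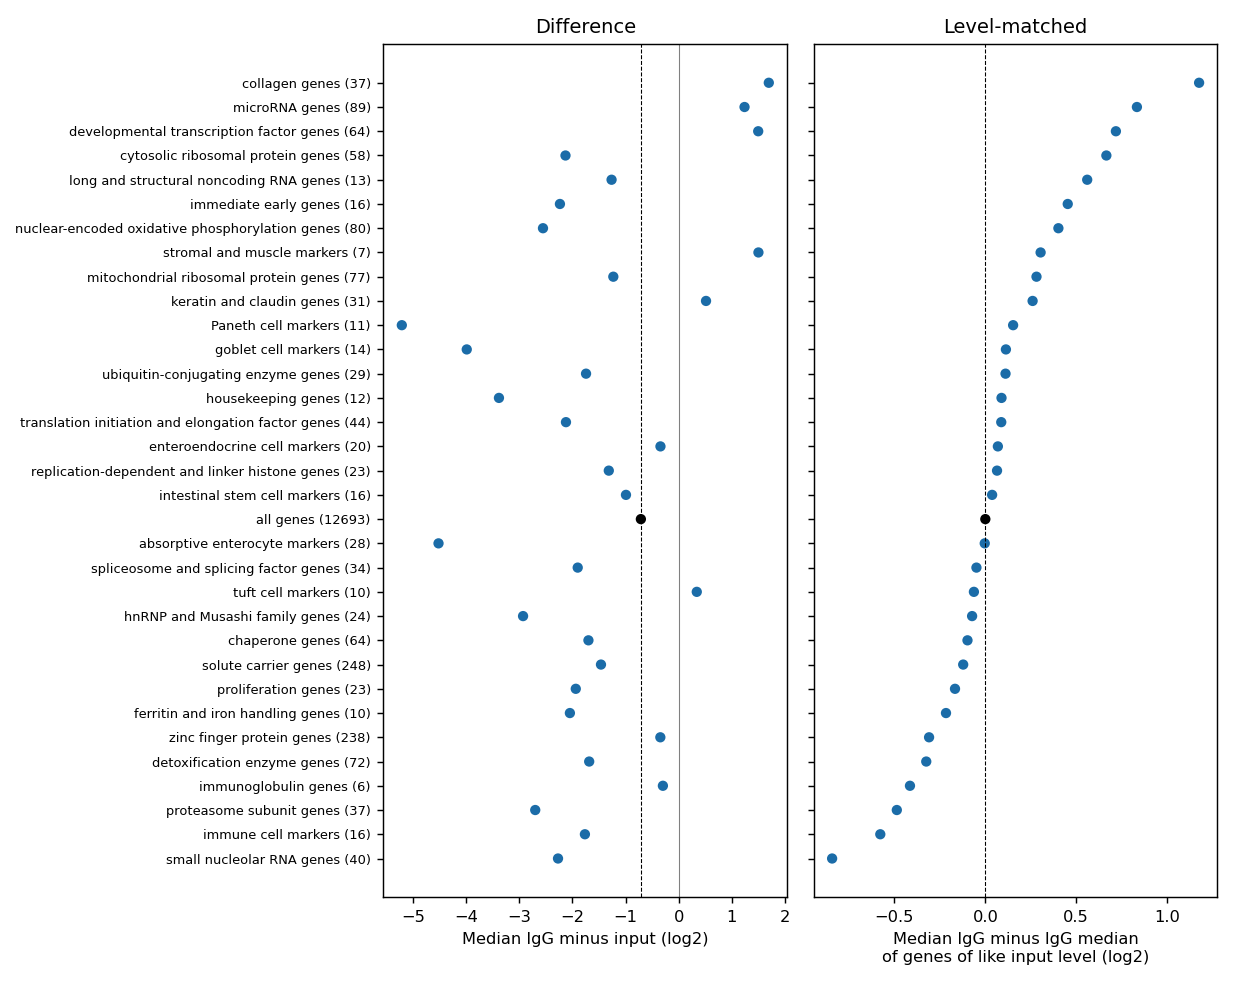
Median difference IgG minus input (left, log2) and median level-matched IgG signal (right, log2) for 32 gene lists with 5 or more members above the input floor, and for all genes in black. The number of members above a floor is in brackets. Collagen genes (1.70 and 1.17) are at the top of both scales, and small nucleolar RNAs (−0.84) are at the bottom of the level-matched one.

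Collagen genes, which encode the fibres and sheets of connective tissue, were the list furthest above input. Of 37 members above a floor, 32 were at least 2-fold higher on IgG and 0 lower, against 16.6% higher of all genes. Of 95 receptor genes above a floor, 46 were higher and 2 lower. The median difference was 1.70, and over 9 settings it lay between 0.73 and 2.29. These settings were scalings, probe set choices and signals raised to the floor, and other floors are not in the range. These genes were dim on input, with a median of 4.55, and the lowest difference was 0.59, for Col20a1. Their level-matched median was 1.17, and 21 of 36 were at least 2-fold above genes of like input, against 10.8% of all genes. Besides Col6a1, Col2a1 read 4.79 and 7.13. The fibrillar collagen genes of stroma read 4.80 and 6.501 for Col1a1, 4.72 and 6.22 for Col1a2 and 4.80 and 5.44 for Col3a1. Stromal and muscle markers, 5 of 14 of which were detected on input, had a median difference of 1.502 over the 7 above a floor. Of these 7, 2 were above the IgG floor only, and the median over all 14 measured was 1.24. The part of stromal and muscle cells in the collagen values was not tested. On hnRNP the list had a median of 6.26, beside 6.27 on IgG and 5.75 on Msi1.

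Developmental transcription factor genes of the Sox, Hox and Fox families behaved in the same direction. Of 64 above a floor, 24 were above the IgG floor only, 40 were higher by 2-fold or more and 7 lower, against 16.6% and 44.7% of all genes. The 24 had to be high on IgG to be counted. The 64 were dim on input, with a median of 4.45. Receptor genes, the unexpressed reference, had 46 of 95 above a floor higher and 2 lower, with a median of 0.92. The median difference of the transcription factor genes was 1.498 (range over the same 9 settings 0.53 to 1.65). Their level-matched median was 0.72 over the 40 detected on input. The lower members were forkhead genes that are bright on input, such as Foxp1 (6.53 and 4.46) and Foxp4 (6.83 and 4.79). Hoxd11 and Sox15 were the highest. Zinc finger protein genes did not share this pattern, with 31 of 238 higher and 66 lower, and a level-matched median of −0.31. Of 31 keratin and claudin genes above a floor 13 were lower and 8 higher. Krt19 (−4.85) and Krt20 (−4.70) were the lowest, the dim Cldn9 (2.66) and Krt75 (1.95) the highest, and the median of 0.52 over 31 members was −0.45 when centred on the receptors.

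Immunoglobulin and B cell genes were scattered. Of 6 immunoglobulin genes above a floor, Igkv4-55 and Igkv8-30 (3.81 on input, 6.43 on IgG) were higher, and 2 kappa variable genes were lower, among them Igkv10-96 (−1.33). With its IgG signal raised to the floor, Igkv10-96 differed by 0.11. The constant region genes Igha and Ighm differed by −0.58 and −0.02. Cd79a, a signalling chain of the B cell receptor, read 2.90 on input, 5.88 on IgG, 5.38 on hnRNP and 3.11 on Msi1. Of 15 immune cell markers detected on input, 2 were above the IgG floor, against 39.9% of all genes. Cd74 (−4.89) and H2-Aa (−4.30) of antigen presentation were the lowest. The list had 10 of 16 lower and 1 higher, with a level-matched median of −0.58.

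Iron storage genes diverged. The ferritin light chain gene Ftl1 read 5.38 on input, 7.998 on IgG, 5.49 on Msi1 and 5.84 on hnRNP, 6.13-fold higher on IgG than on input, while Fth1 was at least 61.4-fold lower. Of 10 iron handling genes 3 were higher, among them Hmox1, which encodes haem oxygenase (1.46), and 7 lower, among them the transferrin receptor gene Tfrc (9.004 and 4.758).

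The brighter a list of epithelial markers was on input, the further it lay below input on IgG. With the IgG median nearly flat over most input levels, this order follows from the input levels. Of 28 absorptive enterocyte markers 27 were lower by 2-fold or more, against 44.7% of all genes above a floor. Their median was −4.52 and their level-matched median 0.00. The cadherin gene Cdh17 (−6.67) and Sis were the lowest, and the fructose transporter gene Slc2a5 (−0.63) and the trehalase gene Treh (−1.60) the highest. The list drawn up for Paneth cells was lower for 11 of 11, median −5.21, with a level-matched median of 0.15. It ran from the antimicrobial lectin gene Reg3b (10.82 and 4.04) and Guca2b (−6.05) to Ang4 (−1.44) and Nupr1 (−1.18). Whether each member is particular to Paneth cells was not tested. Goblet cell markers were lower for 13 of 14, median −3.99, with a level-matched median of 0.11. Muc2 and Clca1 (−5.25) were the lowest and Ccl9 differed by −1.58. The exception was Spdef, a goblet cell transcription factor, which read 6.03 on input and 7.41 on IgG.

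Less abundant epithelial classes differed less from input. Intestinal stem cell markers had 8 of 16 lower, near the 44.7% of all genes, and 0 higher, with Olfm4 read at 10.37 and 5.21, Slc12a2 at 8.70 and 5.11, and Lgr5 at 6.71 and 4.46. Tnfrsf19 (0.73) and Bmi1 (0.71) were at the other end. Enteroendocrine markers had 6 of 20 lower and 1 higher, from Reg4 (−4.44) and the incretin gene Gip (−2.41) to the peptide YY gene Pyy (0.50) and Scg5 (1.93). Tuft cell markers had 1 of 10 lower, Rgs13 (−1.44), and 3 higher, led by Ltc4s (1.85) and Gfi1b (1.49), with Trpm5 at −0.68. The median input signals of these 3 lists were 6.33, 5.59 and 4.72, and their level-matched medians were 0.04, 0.07 and −0.06.

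Markers of stroma and muscle, of enteric neurons and glia and of red blood cells were mostly at background on input. Immune cell markers were not, with 15 of 21 detected there. Of 7 stromal and muscle markers above a floor, 4 were higher, led by the smooth muscle actin gene Acta2 (4.08 and 6.23) and Cnn1 (2.01), and 2 lower, Dcn (−2.25) and Vim (−1.10). Acta2 and Cnn1 were above the IgG floor only, and had to read high there to be counted. The muscle intermediate filament gene Des was above neither floor. Of 5 enteric neuron and glia markers 3 were above the IgG floor only, and had to read high there to be counted. Higher were 4, among them Vip (1.87), Nos1 (1.81) and Sox10 (1.39), and Snap25 differed by 0.33. The embryonic globin gene Hba-x, at 4.27 and 5.78, was the only red blood cell gene above a floor. The second set of genes that gut should not express, keratin-associated, taste and trace amine receptor and prolactin family genes, had 4 of 15 higher and 1 lower. Its range ran from Krtap5-3 (−1.46) to Krtap10-10 (1.38) and Krtap4-1 (1.75).

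Of all genes above a floor 44.7% were lower and 16.6% higher, and the counts of the lists that follow are read against these shares. Cytosolic ribosomal protein genes had 41 of 58 lower and 3 higher, with a median of −2.13, which was −3.26 with the probe set brightest on input and 0.20 with loess centring. Of those detected on input 67.2% were above the IgG floor, against 39.9% of all genes. At least 2-fold above genes of like input were 23 of 58, against 10.8% of all genes. Rpl41 (−5.48) and Rplp0 were the lowest. Mitochondrial ribosomal protein genes had 44 of 77 lower and 3 higher (median −1.23, 0.10 with loess centring), from Mrpl50 (−3.50) and Mrpl34 (−3.07) to Mrpl22 (1.40) and Mrps26 (1.63). Translation factor genes had 36 of 44 lower and 1 higher, with a level-matched median of 0.09 and 43.2% of those detected on input above the IgG floor, against 39.9% of all genes. They ran from Eif4a1 and the elongation factor gene Eef2 (−5.63) to Eif4e3 (0.34) and the cap-binding protein gene Eif4e, whose 3 probe sets differed by 1.94, 1.15 and −1.54.

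Nuclear-encoded oxidative phosphorylation genes had 62 of 80 lower and 3 higher (median −2.55, 0.10 with loess centring). Of those detected on input 68.8% were above the IgG floor, against 39.9% of all genes. Cox6c and Cox7b were the lowest and Atp5g2 and Cox6b2 (1.06) the highest. Immediate early genes had 11 of 16 lower and 0 higher (median −2.23, 0.20 with loess centring), with Btg2 (−4.09) and Klf6 (−4.06) lowest and Ier3 (0.44) and Jund (0.31) highest. Histone genes had 14 of 23 lower and 1 higher (median −1.32, 0.09 with loess centring), from H2bc4 (9.49 and 3.48) and H4c4 (−5.20) to H2bc1 (0.69) and H1f8 (1.51).

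Lists of protein turnover and RNA processing differed among themselves. Proteasome subunit genes had 34 of 37 lower and 0 higher, with a level-matched median of −0.49. Of those detected on input 29.7% were above the IgG floor, against 39.9% of all genes. Psmd14 (7.99 and 2.80) and Psma1 (−4.64) were the lowest and Psmd9 (−0.08) and Psmb8 (−0.76) the highest. Ubiquitin-conjugating enzyme genes had 20 of 29 lower and a level-matched median of 0.11, and ran from Ube2d3 (−4.96) and Ube2j1 (−4.43) to Ube2ql1 (0.38) and Ube2j2 (0.89). Genes of hnRNPs and Musashi proteins had 20 of 24 lower and 1 higher, Hnrnph2, which read 2.41 on 1 probe set and −1.08 on the other. Pcbp2 (−5.42) and Hnrnpa2b1 (−4.82) were the lowest and Hnrnpa0 differed by −0.20. Splicing factor genes had 24 of 34 lower and 4 higher. Of 33 detected on input, 8 were at least 2-fold above genes of like input and 3 below, against 10.8% and 8.48% of all genes. The list ran from Sf3b1 (−4.93) and Sf3b3 (−4.73) to Sf3b4 (2.67) and Srsf12 (2.73).

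Chaperone genes had 41 of 64 lower and 8 higher, against 44.7% and 16.6% of all genes, with Hspa8 and Dnajb9 (−5.59) lowest and the small heat shock genes Hspb1 (2.12) and Hspb9 (2.16) highest. Proliferation genes had 20 of 23 lower and 0 higher, from the replication clamp gene Pcna (−5.20) and the checkpoint gene Bub1 (−3.83) to Cdc20 (−0.48) and Ccne1 (−0.42). Of 12 housekeeping genes 10 were lower and 0 higher, with Tuba1a at 0.85 and Ywhaz at −0.64 on 1 probe set and −5.00 on the other. Solute carrier genes had 140 of 248 lower and 23 higher, again against 44.7% and 16.6%, and ran from Slc35b1 (−5.65) and Slc34a2 (−5.47) to Slc22a17 (2.06) and Slc9c1 (2.18). Detoxification enzyme genes had 47 of 72 lower and 10 higher, with a level-matched median of −0.32 and 11 of 67 at least 2-fold below genes of like input, against 8.48% of all genes. In this list Cyp2d26 (−5.59) and Cyp3a13 (−5.50) were lowest and Aldh3b3 and Gstt4 (2.94) highest. Zinc finger genes, 39 of 220 of which were at least 2-fold below genes of like input, ran from Zfp207 (−4.74) and Zfp706 (−3.78) to Zfp957 (2.60) and Zfp382 (3.36).

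MicroRNA genes, whose hairpin precursors are cut into short RNAs that silence mRNAs, were the noncoding class most often higher on IgG. Of 89 above a floor among 300 measured, 50 were higher by 2-fold or more and 6 lower, against 16.6% and 44.7% of all genes. Of the 89, 17 were above the IgG floor only and had to be high there to be counted. Receptor genes, the unexpressed reference, had 46 of 95 above a floor higher and 2 lower, with a median of 0.92. For microRNA genes the median was 1.24 (range over the same 9 settings 0.28 to 1.58) and the level-matched median 0.83. The lowest value of this range, 0.28, was the median with arrays centred on the receptors. Mir182 read 2.09 on input and 6.01 on IgG and Mir30c-2 read 2.57 and 6.34, while Mir383 (−2.01) and Mir505 (−1.69) were the lowest. RefSeq hairpins (GRCm38.p6) were matched for 258 of the 300 genes. Their signals went with base composition on every array. Hairpins were placed in 4 groups of like size by G and C content. Those with the least, 28.4% to 42.4%, had median signals of 2.03 on input and 3.39 on IgG, and 0 of 65 were above the IgG floor. Those with the most, 53.7% to 69.2%, had medians of 4.71 and 5.61, and 40 of 65 were above it. Across the 258 genes G and C content correlated with the input signal at Pearson's r = 0.76, with the IgG signal at 0.71 and with their difference at −0.13 (Spearman's rho 0.78, 0.71 and −0.16). All points of a panel come from 1 array, and genes are not independent replicates.

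**Figure D5:**
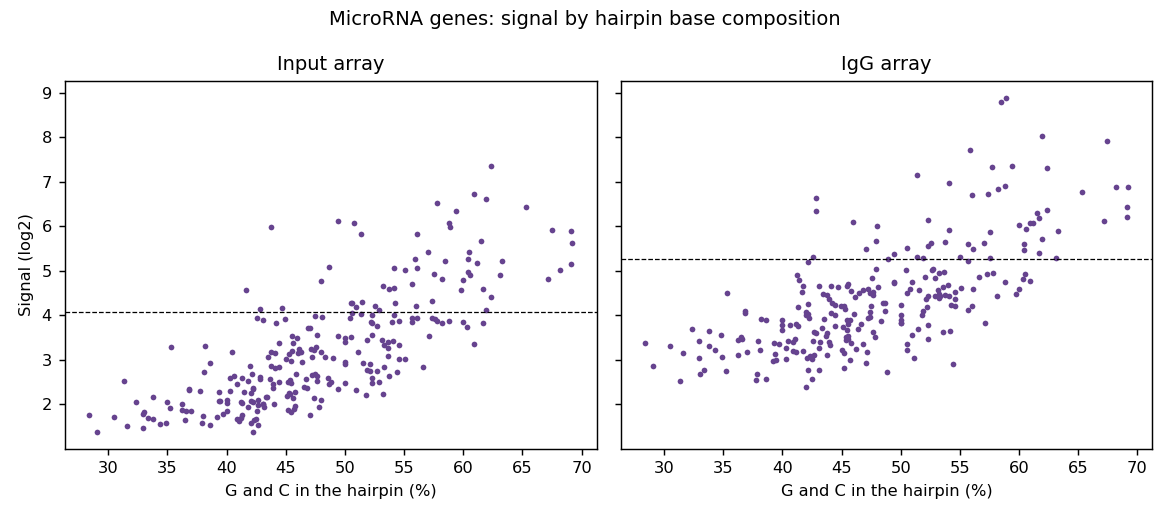
Signal (log2) on the input array (left) and the IgG array (right) against the percentage of G and C in the hairpin, for 258 microRNA genes, with each array's floor dashed. Signals rise with G and C content on both arrays, and no gene below 42.4% exceeds the IgG floor.

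The hairpins with the 3 highest and 3 lowest IgG signals among the 258 show this contrast, with G and C in capitals, 5′ to 3′. Mir483 (chr7:142654924-142654996, minus strand, within the span of Igf2) read 8.88 on IgG with 58.9% G and C. Mir185 (chr16:18327401-18327465, minus strand, within Tango2) read 8.79 with 58.5%, and Mir667 (chr12:109720006-109720097, plus strand) read 8.03 with 62.0%. Mir340 (chr11:50069702-50069799, plus strand, within Rnf130) read 2.55 with 37.8%. Mir568 (chr16:43640655-43640737, plus strand, within Tigit) read 2.54 with 31.3%, and Mir302a (chr3:127545496-127545564, plus strand, within Larp7) read 2.40 with 42.0%.
Mir483: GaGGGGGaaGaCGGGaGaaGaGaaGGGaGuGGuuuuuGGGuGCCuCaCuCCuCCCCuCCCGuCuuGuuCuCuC
Mir185: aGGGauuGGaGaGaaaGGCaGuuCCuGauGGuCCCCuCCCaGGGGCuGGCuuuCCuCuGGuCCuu
Mir667: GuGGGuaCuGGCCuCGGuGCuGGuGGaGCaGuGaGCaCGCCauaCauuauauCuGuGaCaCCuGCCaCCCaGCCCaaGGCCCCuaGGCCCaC
Mir340: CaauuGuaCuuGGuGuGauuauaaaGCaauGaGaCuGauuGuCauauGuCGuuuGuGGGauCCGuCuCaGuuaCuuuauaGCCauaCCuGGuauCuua
Mir568: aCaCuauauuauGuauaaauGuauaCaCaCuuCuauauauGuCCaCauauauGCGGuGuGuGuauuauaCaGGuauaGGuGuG
Mir302a: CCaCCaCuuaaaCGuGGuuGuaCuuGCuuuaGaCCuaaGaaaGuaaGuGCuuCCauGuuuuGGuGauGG

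The mature sequences of Mir182 and Mir30c-2, which had the largest differences of the deposited signals, are shown with the seed, bases 2 to 8, in capitals. Both genes were below the input floor, so they were at least 3.80-fold and 4.77-fold higher, and Mir185, above both floors, differed by 3.57. The 4 sequences share no seed. Mir182 lies at chr6:30165918-30165992 on the minus strand and Mir30c-2 at chr1:23291701-23291784 on the plus strand.
mmu-miR-182-5p: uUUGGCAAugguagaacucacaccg
mmu-miR-182-3p: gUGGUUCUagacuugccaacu
mmu-miR-30c-5p: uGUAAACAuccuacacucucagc
mmu-miR-30c-2-3p: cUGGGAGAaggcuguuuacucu

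Gene structure also differed between genes kept and not kept. Of protein-coding genes other than receptors, those with the shortest span on the genome (median 4284 bases) were above the IgG floor in 52.9% of cases detected on input, against 30.0% of those with the longest (median 103262 bases). Level-matched medians ran from 0.25 through 0.05 and −0.11 to −0.14 over the 4 groups from shortest to longest. By gene class, 68.1% of microRNA genes, 57.8% of long noncoding RNA genes, 39.2% of protein-coding genes and 12.2% of small nucleolar RNA genes detected on input were above the IgG floor. So were 56.6% of 53 transcribed pseudogenes, 60.0% of 10 other pseudogenes and 42.9% of 14 miscellaneous RNA genes, beside 41.0% of 61 receptor genes. By G and C content of the promoter, which 80.5% of these protein-coding genes had in the RefSeq table, the share was 31.6% in the lowest of 4 groups and 41.2% in the highest. Among genes not detected on input, the share above the IgG floor was 6.89% in the lowest group and 22.8% in the highest. Median input signals also differed between these promoter groups, from 3.68 to 5.67. Over genes detected on input, level-matched medians were −0.17, −0.003, 0.003 and 0.029 from the lowest group to the highest. The part of input level in the shares themselves was not tested.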

How the data were processed

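RNA of 4 samples was read on Affymetrix Mouse Gene 1.0 ST arrays, 1 array per group. Analysis began from the log2 values that the authors deposited. The submitters' processing notes name affy. How background was corrected and arrays normalized is not stated there, and base 2 is read from the values, which lie between 1.07 and 14.3. The standard deviation over all probe sets was 2.01 on input and 1.17 on IgG, and forcing both onto 1 distribution changed many differences.

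Probe sets were named from the platform annotation, and 21553 of the 21640 with 1 symbol matched the RefSeq gene table (GRCm38.p6). Each gene is shown by its brightest probe set, by the mean of the 4 arrays. Genes above the 95th percentile of receptor probe sets on input or IgG were compared at 2-fold. Level-matched values subtract the median IgG signal of genes in the same of 20 input bins, over genes detected on input. With 1 array per group no p-value was computed, and the number of arrays limits the precision. Signal over the floor takes the place of depth. A fold of a gene whose dimmer signal was not above its floor is a lower bound against the floor.

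Genes named are the 10 highest and 10 lowest differences above both floors, the 10 brightest on 1 array that were not above the floor of the other, the 10 brightest on each array, the 10 highest level-matched, up to 2 at each end of each of 38 lists, Msi1 and Msi2. Predicted genes, clones, microRNAs, Snora, Snord and receptor symbols were not ranked. Other genes are named as examples. The comparison, lists and rules were chosen with earlier results of these data known. The design foresaw protein length, which was not analysed here, and gene span was used in its place. Promoter and hairpin base composition were added after seeing the data. The 2-fold calls were tested on simulated arrays that both followed input with equal noise, unlike the IgG array here. The level-matched step was tested with a flat simulated IgG signal. Alternatives were other scalings, floors, thresholds and probe set choices, with genes of 1 probe set added after seeing the data. Calculations ran in Python 3.11.15 with numpy 2.4.6 and pandas 2.3.3, loess in statsmodels 0.14.6, and figures in matplotlib 3.10.9.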

Additional observations from a re-analysis of the deposited data

Results flagged for a closer look

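Probe sets that carry no gene symbol here were outside the comparison of genes. Of 5829 above a floor, 1670 (28.6%) were at least 2-fold higher on IgG than on input, against 16.2% of the probe sets with 1 symbol, and 2097 (36.0%) were at least 2-fold lower. At least 16-fold higher were 83 probe sets without a symbol and 4 of the 21640 with 1 symbol, and the largest difference was 7.88. A signal of 10 or more on IgG was reached by 62 probe sets without a symbol and by 4 with 1 symbol. Probe sets with several symbols were higher in 117 of 851 cases (13.7%), of which 5 were at least 16-fold higher.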

How the results depend on the processing

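With 1 array per group there was no replicate to leave out, and no single-gene difference has a replicate check. No paired analysis was possible because each group has 1 array. Background limits what can be read on IgG, where the median gene above a floor read 5.14 against a floor of 5.26. The share of called genes that were higher, 27.0%, and the median difference, −0.71, moved most with the processing. The share was 21.9% and the median −0.92 when arrays were centred on the median. Centred on the receptor median, 526 genes were higher, the share was 6.02% and the median −1.68. Quantile normalization gave 39.4% and −0.34. Loess centring, which by its construction removes the trend with signal, gave 3102 lower genes, 49.2% and −0.072. A floor at the 99th percentile left fewer genes, of which 890 were higher (13.7%), the median was −1.36, 1467 genes were above both floors and 600 above the IgG floor only. With a floor from the second unexpressed set the share was 20.4%, the median −1.37, and 2113 and 1528 genes were in those classes. Without a floor 6164 genes were higher, the share was 52.1% and the median 0.36. Over genes above both floors 1142 were higher and 1507 lower, 43.1% and −0.10. With the dimmer value raised to its floor the share was 36.2% and the median −0.29. A 1.5-fold threshold gave 30.4%, and a 3-fold threshold gave 1108 higher genes and 20.7%. Averaging probe sets, taking the one brightest on input, counting each separately, or using genes with 1 probe set (added after seeing the data) kept these summaries within 1.5 times.

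Directions turned as follows, and beyond what each alternative removes by construction the cause was not tested. Under quantile normalization Tpt1 was at 0.12 and Ang4 at 0.31. Under loess centring the median was 0.20 for cytosolic ribosomal protein genes, 0.10 for mitochondrial ribosomal protein genes, 0.10 for oxidative phosphorylation genes, 0.094 for histone genes, 0.95 for long and structural noncoding RNA genes, 2.14 for mitochondrially encoded genes and 0.20 for immediate early genes. Loess centring also turned Lyz1 (1.12), Rn7sk (6.72), Rpph1 (6.34), Tpt1 (4.32), Lypd8 (1.11), Krt8 (2.72), Actb (0.75), Msi1 (2.09), ND3 (0.70), Mrpl34 (0.17), H4c4 (0.0073), Scarna13 (0.20), Malat1 (0.23), COX2 (3.59), Treh (0.12), Nupr1 (0.62), Ang4 (1.63) and Gip (0.0084). Raised to the floor, Igkv10-96 was at 0.11 and Olfr558 at 0.87. With the mean of probe sets Atp5g2 was at −0.94 and Rps28 at −2.34. With the probe set brightest on input Rpl24 was at −1.13, Trdn at −0.56, Atp5g2 at −4.91, Rps28 at −3.76, Eif4e at −1.54 and Hnrnph2 at −1.08. With genes above both floors alone, the level-matched median of small nucleolar RNA genes was 0.40, for 5 genes, in place of −0.84.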
